A study of Mus musculus with 11 samples.

Results

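The microRNAs (miRNAs) miR-146a, miR-146b and miR-155 are described here in macrophages of the mouse heart before and after injury. They were taken by name, as the 3 probe sets with the array's systematic names mmu-miR-146a-5p, mmu-miR-146b-5p and mmu-miR-155-5p, out of 1247 miRNAs on the array. The names were chosen with earlier results of these data known, so their ranks among other miRNAs are descriptions. The species prefix is left out below.

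Toll-like receptors sense microbial products and molecules from damaged cells, and signal through NF-kappaB. miR-146a is transcribed under NF-kappaB and represses the adaptor Traf6 and the kinase Irak1 of the same pathway, so it is known as a brake on it. miR-155 is processed from the long non-coding transcript Mir155hg (Bic), rises after Toll-like receptor stimulation of macrophages, and represses Socs1 and Inpp5d, which restrain inflammatory signalling.

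GFP-positive macrophages were sorted from the hearts of Cx3cr1GFP/+ mice of 2-3 months, in which a reporter allele replaces a copy of the gene for the fractalkine receptor, in controls as well as injured animals. The control hearts had no surgery (day 0, Ly6Clow/CX3CR1high cells, 2 arrays), and the others were taken after cryoinjury, a freezing lesion that served as the model of infarction. These gave Ly6Chigh/CX3CR1low cells at day 3 (3 arrays) and Ly6Clow/CX3CR1high cells at day 7 (3 arrays) and day 30 (3 arrays). Ly6Chigh cells were measured at no other day, so that day and cell population cannot be told apart wherever day 3 is compared, and no sham-operated group was analysed here, so that injury and surgery cannot be told apart either.

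The mature sequences are shown first because miR-146a and miR-146b are near-identical, which bears on how far their probes can be read apart. They come from RefSeq (GRCm38.p6), run 5′ to 3′, and have the seed, bases 2 to 8, in capitals.
miR-146a-5p: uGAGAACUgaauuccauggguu
miR-146b-5p: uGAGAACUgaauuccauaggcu
miR-155-5p: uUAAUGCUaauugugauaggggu

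miR-146a-5p lies on the minus strand of chr11:43374435-43374456 in the gene Mir146, and no other gene of the RefSeq table holds its whole hairpin. Partial overlap was not looked for, and the strand of other genes was not compared. miR-146b-5p lies on the plus strand of chr19:46342790-46342811 in Mir146b, whose hairpin lies within the bounds of the long non-coding RNA gene Gm36493. miR-155-5p lies on the plus strand of chr16:84714143-84714165 in Mir155, whose hairpin lies within the bounds of the long non-coding RNA gene Mir155hg. Counted from 1 at the 5′ end, miR-146b-5p differs from miR-146a-5p by the substitutions G18A and U21C, and the other 20 of 22 bases are shared. The seed GAGAACU is held by these 2 alone among 1679 mature miRNA names of the table, and the seed UAAUGCU by miR-155-5p alone. The arrays also carry the opposite arms of the 3 hairpins, miR-146a-3p, miR-146b-3p and miR-155-3p, and none of these was detected on any of the 11 arrays.

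The scanner gave each miRNA a total signal and a detection flag. Levels are log2 of that signal over the array's 75th percentile among the 126 miRNAs that every array detected, so that 0 is that percentile and a step of 1 is a doubling. In scanner units the percentile itself was 55.7 to 163 (day 0), 805 to 1607 (day 3), 114 to 323 (day 7) and 1453 to 2304 (day 30), so that the arrays of days 3 and 30 were the brighter ones. Brightness did not overlap between those days and days 0 and 7. A fit with brightness as a covariate, given below as an alternative, can therefore hardly separate brightness from group in such comparisons. At day 30, replicates 2 and 3 were closer to each other than the scanner's error allows for (median absolute log2 difference 0.06 over 290 miRNAs) and were counted as 1 sample, which leaves n = 2 at day 30, 10 samples in all, and few arrays to set the precision of any value. Changes were tested with limma over 369 miRNAs, and a call is a Benjamini-Hochberg adjusted p under 0.05. The median change of the 126 miRNAs was not 0: relative to day 0 it was -0.77 (day 3), -0.21 (day 7) and -1.06 (day 30), relative to day 3 it was 0.63 (day 7) and -0.49 (day 30), and between the last 2 groups it was -0.57. Comparisons that share a group share its samples.

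Of 3 leukocyte markers, miR-223-3p and miR-142a-3p were detected on all 11 arrays. miR-142a-5p was detected on 7 arrays, on none at day 0 and on 1 of 3 at day 7. The summed scaled signal of the 3, most of it from miR-223-3p, was 3.90 to 7.16, 14.2 to 17.9, 2.38 to 3.58 and 7.94 to 9.33 at days 0, 3, 7 and 30. Of 6 cardiomyocyte markers, miR-208a-3p, miR-208b-3p and miR-499-5p were never detected, and the sum was 0.101 to 0.164, 0.0158 to 0.0381, 0.0698 to 0.120 and 0.0526 to 0.0773. The sum of 3 lymphocyte markers, in the same order of days, was 1.81 to 2.03, 1.48 to 2.06, 2.003 to 3.54 and 1.01 to 1.29. Most of it came from miR-342-3p, since miR-150-5p was undetected at day 0 and dim elsewhere, and miR-150-3p was detected on 3 arrays. That of 5 fibroblast markers was 0 to 0.0312, 0.0820 to 0.112, 0.165 to 0.412 and 0.195 to 0.212, with miR-145a-5p never detected. That of 2 endothelial markers was 0.0647 to 0.417, 0.306 to 0.402, 0.287 to 0.342 and 0.248 to 0.266, most of it from miR-126a-3p, as miR-126a-5p was detected on 4 arrays. Of 2 erythroid markers, miR-144-3p was never detected, and the sum was 0, 0.0288 to 0.0564, 0 to 0.0104 and 0.0815 to 0.106. In sorted pools such as these, fewer cells of a type and less RNA per cell cannot be told apart.

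miR-146a-5p, the brake on Traf6 and Irak1, was 24.0-fold lower in the Ly6Chigh cells of day 3 than in the Ly6Clow cells of the uninjured heart, and was 12.4-fold and 40.3-fold higher than at day 3 in the Ly6Clow cells of days 7 and 30. It was detected on 11 of 11 arrays. Its levels were 0.31 and -0.38 on the day 0 arrays, -3.30, -5.80 and -4.76 at day 3, -0.69, -1.77 and -0.51 at day 7, and 0.92, 0.49 and 0.53 at day 30. All 3 arrays of day 3 lay below all 8 others, by at least the gap between -3.30 and -1.77, and no pair of groups overlapped. The group means were -0.03 ± 0.49 (SD, n = 2) at day 0, -4.62 ± 1.26 (n = 3) at day 3, -0.99 ± 0.68 (n = 3) at day 7 and 0.71 ± 0.29 (n = 2) at day 30. The spread at day 3 was the widest of the 4 groups.

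In unscaled scanner units miR-146a-5p read 202.59 and 42.9 at day 0, 97.5, 14.4 and 59.3 at day 3, 200.07, 33.3 and 182.67 at day 7, and 4346, 2040 and 2531 at day 30. The bright arrays of day 3 gave at most 97.5, whereas the dimmer arrays of day 0 replicate 1 and day 7 replicates 1 and 3 gave 182.67 to 202.59. The scanner's error was at best 8.61% of its signal, and the signal stood 7.44 to 11.6 times above that error on the 11 arrays.

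**Figure D1:**
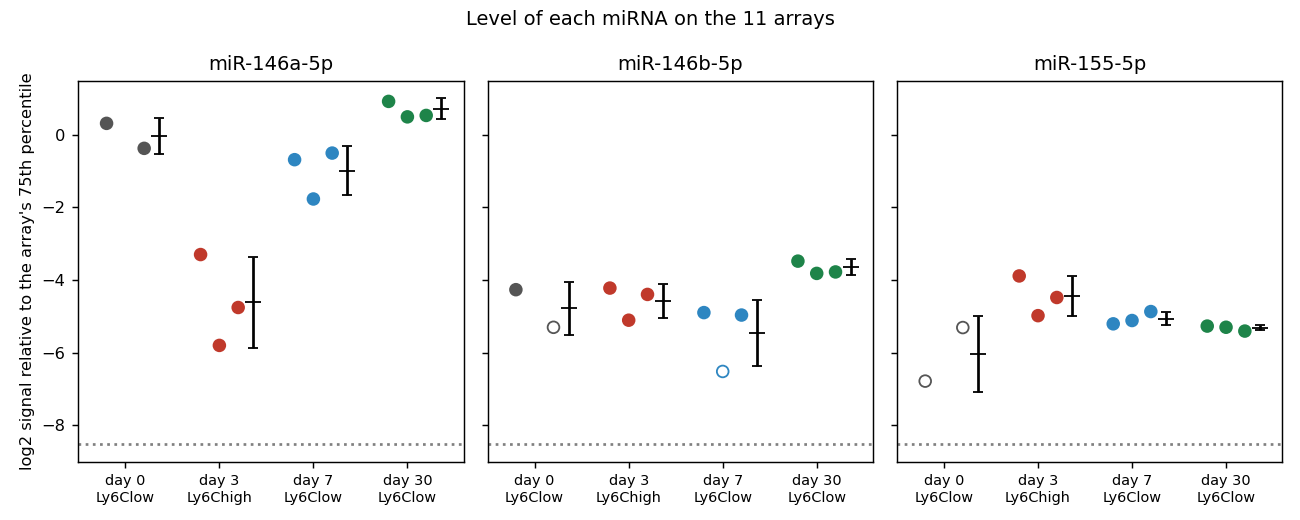
Levels of miR-146a-5p, miR-146b-5p and miR-155-5p on the 11 arrays (vertical axis, log2 signal relative to the array's 75th percentile; horizontal axis, day after injury and cell population). Filled points were detected and open points were not, the bar beside each group is its mean ± SD over samples (day 30 as 2 samples), and the dotted line is the floor at -8.53. miR-146a-5p drops to between -5.80 and -3.30 at day 3, whereas the others lie between -6.79 and -3.48 throughout; each panel is read on its own, since probes differ in brightness.

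At day 3 against day 0, miR-146a-5p fell by 4.59 on the log2 scale (SE 0.66, 95% interval -6.01 to -3.17, limma adjusted p = 0.000357), and it was lower in 3 of 3 day 3 samples. Relative to the median change this is -3.82. In this comparison 55.3% of the tested miRNAs were called, 39% were called as lower (144, beside 60 as higher), and 65.6% had groups that did not overlap, so that a call of miR-146a-5p alone was common. Without scaling the split was 1 lower and 250 higher. By size, of 132 miRNAs that every array of both groups detected, only miR-99b-5p fell further. Within slide 1 the difference was -4.34 (2 samples of day 3 against 1 of day 0), and within slide 2 it was -5.43 (1 against 1). Its direction held under every scaling tried, but the call was lost with the percentile taken over all miRNAs (-2.05, adjusted p = 0.145) and without scaling (-1.09, adjusted p = 0.403).

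From day 3 to day 7, miR-146a-5p was higher by 3.63 (SE 0.59, limma adjusted p = 0.00124), which is 12.4-fold and 3.00 above the median change. No other of 201 miRNAs that every array of both groups detected rose as much. Dividing each array by a constant cannot change this rank. Quantile normalization and the authors' table could have changed it, and both kept it. The background was 37.1% called, 21.1% called as higher (78, beside 59 as lower; 2 and 206 without scaling) and 64.2% without overlap. The within-slide differences were 3.43 (slide 1, 2 samples against 2) and 4.03 (slide 2, 1 against 1). The call was lost when the percentile was taken over all miRNAs (2.41, adjusted p = 0.0952) and without scaling (1.29, adjusted p = 0.294).

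From day 3 to day 30 the difference was the widest, 5.33 (SE 0.66, 95% interval 3.91 to 6.75, limma adjusted p = 0.000157), or 5.83 relative to the median change. It was the highest of 243 miRNAs that every array of both groups detected. It stayed so with quantile normalization and in the authors' table, the only scalings that could change its rank. The difference was called under all 22 alternatives, with values from 4.74 to 6.17. Here 30.9% of the tested miRNAs were called, 9.76% as higher (36, beside 78 as lower; 76 and 55 without scaling), and 74.5% did not overlap. Both arms of this comparison were bright arrays. The within-slide differences were 4.95 (slide 1, 1 sample of day 30 against 2 of day 3) and 6.31 (slide 2, 1 against 1).

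Among the Ly6Clow groups the differences of miR-146a-5p were smaller. Against day 0 it was -0.96 at day 7 (95% interval -2.38 to 0.46, limma adjusted p = 0.318), where 3.79% of miRNAs were called and 19.5% did not overlap. This difference changed sign when the percentile was taken over all miRNAs (0.37) and without scaling (0.20). At day 30 it was 0.75 above day 0 (95% interval -0.81 to 2.30, limma adjusted p = 0.380), where 56.4% of miRNAs were called and 78.3% did not overlap. Its sign turned with brightness as a covariate (-1.83, SE 1.68 beside 0.72 in the fit as reported), a fit that can hardly separate brightness from group here. The day 30 difference passed the test when the percentile was taken over all miRNAs (3.69, limma adjusted p = 0.0292) and without scaling (5.08, adjusted p = 0.00403).

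Day 30 exceeded day 7 by 1.70 (SE 0.66, limma adjusted p = 0.0478, 3.25-fold, 2.27 relative to the median change), against a background of 47.7% called, 13.6% called as higher (50, beside 126 as lower; 234 and 10 without scaling) and 71.3% without overlap. That call had the highest adjusted p of the 4 and was lost by leaving out any of 5 of the 10 samples (adjusted p up to 0.235): day 3 replicate 3, day 7 replicate 2 or 3, day 30 replicate 1 or the day 30 pair, and the sign turned with brightness as a covariate (-0.19). It was lost as well with quantile normalization (1.49, adjusted p = 0.142), in the authors' table (1.48, adjusted p = 0.0927) and with the highest floor (1.70, adjusted p = 0.123). The order of the miR-146a-5p means was therefore day 3, day 7, day 0, day 30. In the fit as reported, day 7 and day 0, and day 0 and day 30, were not called as different, and the latter pair was called under both scalings named above.

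**Figure D2:**
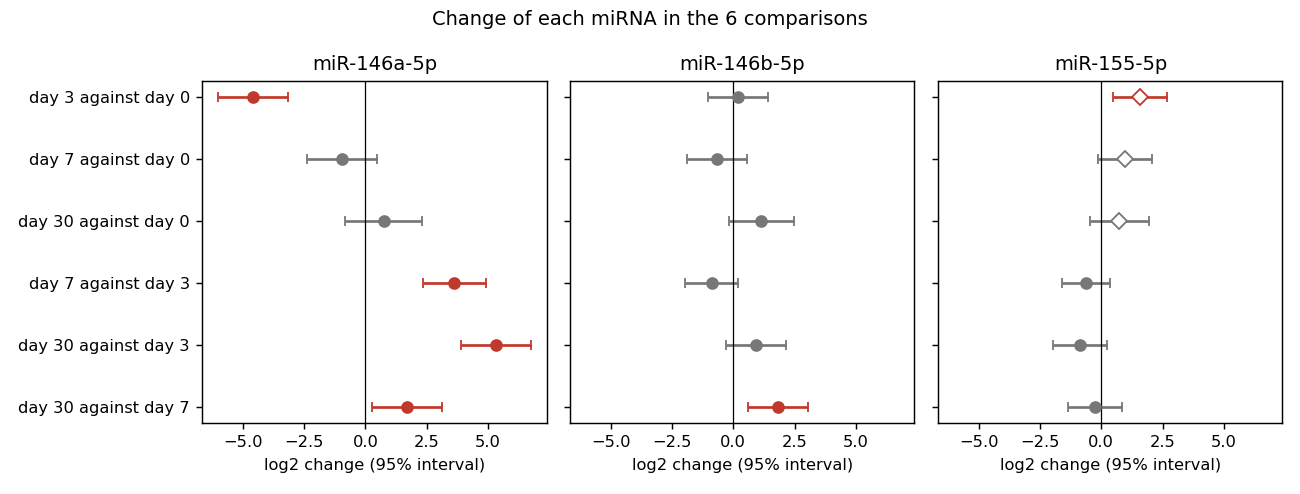
Change of each miRNA in the 6 comparisons (horizontal axis, log2 change of the first day over the second with its 95% interval; one row per comparison). Red marks an adjusted p under 0.05 in limma, grey the rest, and open diamonds a miRNA undetected on every array of day 0. miR-146a-5p spans -4.59 to 5.33, and miR-146b-5p and miR-155-5p stay between -0.88 and 1.82. With brightness as a covariate the day 30 against day 7 changes of miR-146a-5p and miR-146b-5p turn sign, in a fit that can hardly separate brightness from group.

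The range of miR-146a-5p over the 10 samples was 6.72, or 105-fold, and none of the 369 tested miRNAs had a larger one. The same was seen after quantile normalization and among the 317 miRNAs of the authors' log2 table, whereas 9 miRNAs had a larger range when the percentile came from all miRNAs, and 10 did without scaling. miR-146b-5p ranged over 3.04 and miR-155-5p over 2.90, and 218 and 230 of the tested miRNAs ranged more widely.

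**Figure D3:**
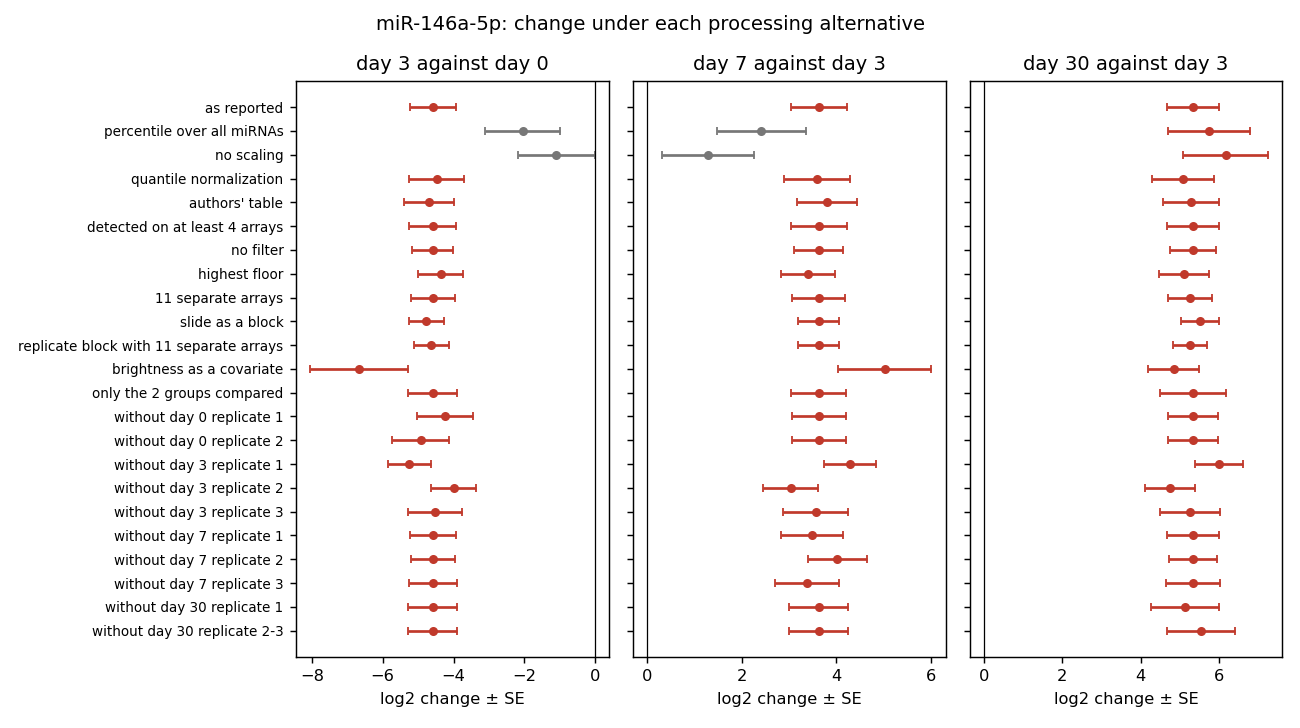
miR-146a-5p under each processing alternative in the 3 comparisons that involve day 3 (horizontal axis, log2 change ± SE; one row per setting). Red points passed an adjusted p under 0.05 and grey ones did not. The direction is the same under every setting, the grey points are the percentile over all miRNAs and no scaling for day 3 against day 0 and day 7 against day 3, and day 30 against day 3 runs from 4.74 to 6.17.

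miR-146b-5p, which shares the seed of miR-146a-5p and so can pair with the same seed matches, was dim and was not called at day 3 against day 0. It was detected on 9 of 11 arrays. Its levels were -4.27 and -5.30 at day 0, -4.22, -5.11 and -4.40 at day 3, -4.90, -6.52 and -4.97 at day 7, and -3.48, -3.82 and -3.78 at day 30, where the values of day 0 replicate 2 and day 7 replicate 2 were not detected and stand for background. The day 30 arrays were the highest and lay above all others. The group means were -4.79 ± 0.73 (SD, n = 2), -4.58 ± 0.47 (n = 3), -5.46 ± 0.92 (n = 3) and -3.64 ± 0.22 (n = 2).

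At day 3 against day 0 miR-146b-5p differed by 0.21 (SE 0.57, 95% interval -1.01 to 1.43, limma adjusted p = 0.781), an interval that excludes a fall as large as that of miR-146a-5p. The sign is not settled: it was -0.31 without day 0 replicate 2, -2.68 with brightness as a covariate and 3.42 without scaling. The only call was day 30 against day 7, where miR-146b-5p was higher by 1.82 (SE 0.57, limma adjusted p = 0.0184, 3.53-fold), or 2.39 relative to the median change, with no overlap, beside 47.7% of miRNAs called, 13.6% called as higher and 71.3% without overlap. The within-slide differences were 1.45 (slide 1, 1 sample of day 30 against 2 of day 7) and 2.72 (slide 2, 1 against 1). That call was lost without day 7 replicate 2 (1.29), day 30 replicate 1 (1.66) or the day 30 pair (1.98), and the sign turned with brightness as a covariate (-0.80).

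The remaining changes of miR-146b-5p were, relative to day 0, -0.68 at day 7 (95% interval -1.90 to 0.55) and 1.15 at day 30 (-0.20 to 2.49), and relative to day 3, -0.88 at day 7 (-1.98 to 0.21) and 0.94 at day 30 (-0.29 to 2.16). The limma adjusted p was 0.418, 0.126, 0.164 and 0.216 in the same order. With the slide as a block the last 3 passed the test: 1.15 (adjusted p = 0.0337), -0.88 (0.0491) and 1.10 (0.0432). Day 30 relative to day 0 also passed when the percentile was taken over all miRNAs (4.003), without scaling (5.19), in the authors' table (1.66) and without day 0 replicate 1 (1.66), and day 7 relative to day 3 passed without scaling (-2.98). Both comparisons of day 30, with day 0 and with day 3, had groups that did not overlap, as did 78.3% and 74.5% of miRNAs. The order of the means was day 7, day 0, day 3, day 30, and no neighbours in it were called as different in the fit as reported. Neighbours were called without scaling for day 3 over day 0 (3.42, limma adjusted p = 0.00717), and with brightness as a covariate for day 3 (-2.68, adjusted p = 0.0397) and day 7 (-1.63, adjusted p = 0.0252) relative to day 0. In every group the sample on slide 2, where the arrays were dimmer, had the lowest level of both miR-146a-5p and miR-146b-5p.

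Because miR-146a-5p and miR-146b-5p differ by G18A and U21C only, the value of miR-146b-5p is uncertain where miR-146a-5p is abundant. Its unscaled signals were 8.47 and 1.41 at day 0, 51.4, 23.3 and 76.1 at day 3, 10.8, 1.24 and 8.30 at day 7, and 206, 103 and 128 at day 30. On the 6 Ly6Clow arrays that detected both, the miR-146b-5p signal was 4.18% to 5.40% of the miR-146a-5p signal, a range of 1.29-fold. The miR-146a-5p signal went from 182.67 to 4346 scanner units there. Much of that span was array brightness: the 75th percentile went from 163 to 2304, and the scaled miR-146a-5p level only from -0.69 to 0.92. Of these arrays 3 were of day 30, where replicates 2 and 3 were counted as 1 sample. At day 3 the same ratio was 52.7%, 162% and 128%. Probes differ in brightness, so only the change of this ratio between arrays can be read. It was steady on those 6 Ly6Clow arrays and higher at day 3. Whether miR-146a-5p RNA binds the miR-146b-5p probe was not tested.

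**Figure D4:**
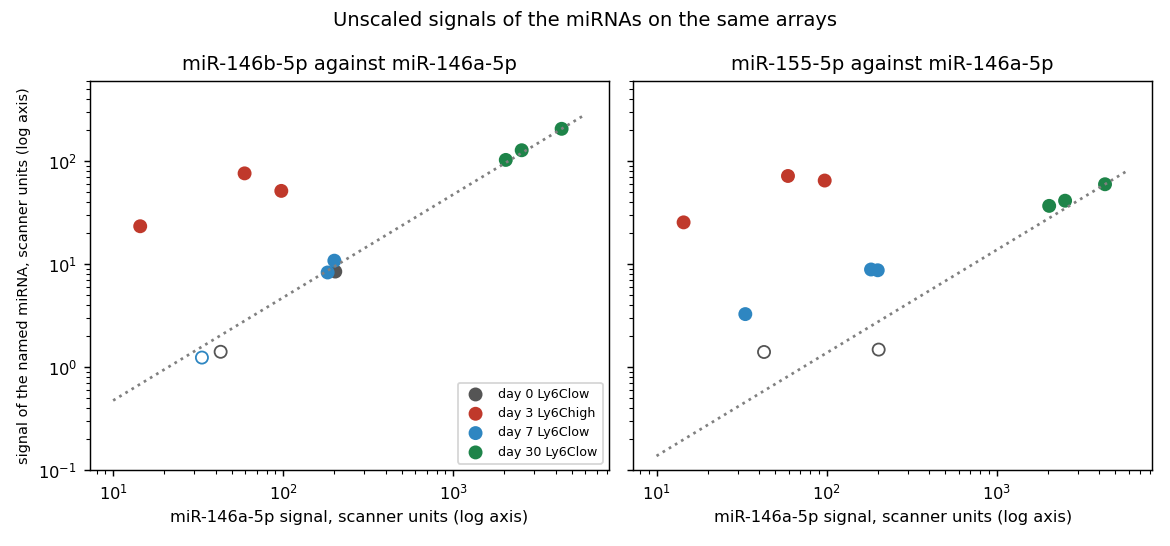
Unscaled signal of miR-146b-5p (left) and miR-155-5p (right) against that of miR-146a-5p on the same arrays (both axes in scanner units, log scale), coloured by group, with open points for arrays that did not detect the miRNA on the vertical axis. The dotted line is a constant ratio, drawn through day 30 replicate 1. The 6 Ly6Clow arrays that detected miR-146b-5p follow that line (4.18% to 5.40%), and the 3 day 3 arrays lie above it in both panels.

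miR-155-5p, which represses the inhibitors Socs1 and Inpp5d, was not well above background in the uninjured heart and was detected on all 9 arrays after injury. Its levels were -6.79 and -5.31 at day 0 (both not detected), -3.89, -4.98 and -4.48 at day 3, -5.21, -5.12 and -4.87 at day 7, and -5.27, -5.30 and -5.41 at day 30. The day 3 arrays held the highest value, and 1 of them, replicate 2, lay within the range of day 7. The group means were -4.45 ± 0.55 (SD, n = 3) at day 3, -5.07 ± 0.17 (n = 3) at day 7 and -5.31 ± 0.06 (n = 2) at day 30, beside a background of -6.05 ± 1.04 (n = 2) at day 0.

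Its unscaled signals were 1.48 and 1.40 at day 0, 64.8, 25.5 and 71.8 at day 3, 8.72, 3.27 and 8.87 at day 7, and 59.7, 36.8 and 41.3 at day 30. The day 0 and day 7 arrays were the dim ones. For a miRNA undetected in a group, a bound sets the other group's mean against the higher of each undetected array's lowest detected signal and its own signal. Those limits were -6.63 and -5.12 on the day 0 arrays, and with their mean as the bound the day 3 mean of miR-155-5p was at least 2.68-fold higher than that of day 0. Such a bound compares sample means and allows for no sampling error. The limit of -5.12 lay below all 3 day 3 levels but above all 3 levels of day 30 and above day 7 replicate 1, so no fold over day 0 is given for those days.

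Of these, day 3 against day 0 was called (1.60, SE 0.51, limma adjusted p = 0.0188, 2.36 relative to the median change), against a background of 16.3% called as higher. The groups did not overlap, as for 65.6% of miRNAs, and the day 0 values were background. The call rests on single samples: the adjusted p was 0.130 without day 0 replicate 1, where the change was 0.86, and 0.0782 without day 3 replicate 1, where it was 1.31. The difference was 2.60 within slide 1 (2 samples of day 3 against 1 of day 0) and 0.33 within slide 2 (1 against 1), where the undetected day 0 array was the dimmest of all. The call was also lost with the highest floor (0.66) and with brightness as a covariate (2.70, adjusted p = 0.0837).

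The differences of day 7 and day 30 from day 0 were 0.98 (95% interval -0.12 to 2.08, limma adjusted p = 0.180) and 0.74 (-0.47 to 1.94, adjusted p = 0.268). The former was called under 3 of 22 alternatives: with the percentile over all miRNAs (2.12, adjusted p = 0.0254), with quantile normalization (2.10, 0.0113) and without day 0 replicate 2 (1.72, 0.0374). The latter was called under 5: these same ones (3.50, adjusted p = 0.00166; 2.97, 0.00119; 1.47, 0.0455), no scaling (4.54, 0.000338) and the authors' table (2.08, 0.00349). Without day 0 replicate 1 the latter was -0.0019. Day 30 overlapped day 0, through the undetected day 0 replicate 2, and day 7 did not, as for 19.5% of miRNAs. Between the injured groups miR-155-5p differed from its day 3 level by -0.61 at day 7 (95% interval -1.60 to 0.37, limma adjusted p = 0.272) and by -0.86 at day 30 (-1.96 to 0.24, adjusted p = 0.205). The difference of the last 2 groups was -0.25 (-1.35 to 0.85, limma adjusted p = 0.712). The groups did not overlap in the comparisons of day 30 with day 3 and day 7, as for 74.5% and 71.3% of miRNAs, and the last sign turned under 5 alternatives, among them quantile normalization (0.88). The order of the means was day 0 (background), day 30, day 7, day 3, and no neighbours in it were called as different in the fit as reported. Each pair of neighbours was called under some alternatives. For day 7 relative to day 3 these were the percentile over all miRNAs (-1.83), no scaling (-2.96), quantile normalization (-1.24, limma adjusted p = 0.0149) and the authors' table (-1.25, adjusted p = 0.0174). Day 30 was called as higher than day 7, against the reported sign, with the percentile over all miRNAs (1.37, adjusted p = 0.0443) and without scaling (2.93, adjusted p = 0.00226).

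Read as within-array ratios, which need no scaling, miR-155-5p was 66.5%, 176% and 121% of the miR-146a-5p signal at day 3, 4.36%, 9.83% and 4.86% at day 7 and 1.37%, 1.80% and 1.63% at day 30. The ratio was higher on all 3 day 3 arrays than on all 6 later ones, and higher on the day 7 arrays than on those of day 30. Against miR-146b-5p it was 126%, 109% and 94.3% at day 3, 80.7% and 107% on the day 7 arrays that detected both, and 28.9%, 35.8% and 32.4% at day 30. These ratios show unequal change between the miRNAs and not which of them moved.

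Beside the fall of miR-146a-5p and the higher miR-155-5p at day 3 stood other differences between the day 3 and day 0 arrays. The cardiomyocyte markers miR-133a-3p and miR-133b-3p changed by -2.81 and -2.75, with signs that turned without scaling (0.69 and 0.75), and the leukocyte markers miR-142a-3p and miR-223-3p were higher by 2.82 and 1.51. The leukocyte marker miR-142a-5p, undetected at day 0, was at least 5.61-fold higher by the bound described for miR-155-5p. The erythroid marker miR-451a, also undetected at day 0, was called as higher. No fold is given for it, since its lowest day 3 level did not exceed the higher day 0 limit of -5.12. The fibroblast marker miR-199a-3p, detected on 1 of the 2 day 0 arrays, was higher by 1.29. From day 3 to day 7, as miR-146a-5p rose, miR-133a-3p rose by 2.21 and miR-133b-3p by 2.17, again with the sign turned without scaling (-0.14 and -0.17), the fibroblast marker miR-214-3p rose by 2.79, and miR-142a-3p fell by 2.74, miR-142a-5p by 2.91, miR-223-3p by 2.35 and miR-451a by 2.38. miR-142a-5p and miR-451a were each detected on 1 of the 3 day 7 arrays, so the sizes of those falls rest partly on background. miR-199a-5p, a fibroblast marker, was higher by 1.38, with the sign turned without scaling (-0.96). Between days 3 and 30, miR-1a-3p of cardiomyocytes, detected on 2 of the 3 day 3 arrays, and miR-199a-3p were higher by 2.14 and 1.18, and miR-150-5p of lymphocytes fell by 1.99. At day 30 against day 7, with miR-146a-5p and miR-146b-5p both higher, the lymphocyte marker miR-150-5p fell by 2.69 (sign turned without scaling, 0.49) and the erythroid marker miR-451a rose by 3.43. All 3 leukocyte markers rose in that comparison, miR-142a-3p by 3.55, miR-142a-5p by 4.60 and miR-223-3p by 1.15, as did miR-1a-3p of cardiomyocytes by 1.88. The rises of miR-451a, miR-142a-5p and miR-1a-3p rest partly on background, since each was detected on 1 of the 3 day 7 arrays. Lower at day 30 than at day 7 were miR-342-3p of lymphocytes (-1.19), miR-133a-3p (-1.46) and miR-133b-3p (-1.36), which turned sign both when the percentile was taken over all miRNAs (0.43, 0.16 and 0.26) and without scaling (1.98, 1.71 and 1.82), and miR-214-3p of fibroblasts (-3.09), which turned without scaling (0.09). The part of these cells in the changes of the 3 miRNAs was not tested.

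Over the 10 samples, the miRNAs most like miR-146a-5p in pattern among 125 others detected on all arrays were miR-99a-5p (Pearson r = 0.946), miR-125b-5p (0.921) and miR-511-3p (0.918). miR-99a-5p had mean levels of -0.27, -3.35, -1.29 and -0.04 at days 0, 3, 7 and 30, and miR-511-3p of -1.98, -5.40, -3.62 and -0.43, so that both were lowest at day 3 as miR-146a-5p was. Nearest to miR-146b-5p among 126 were miR-30b-5p (0.984), miR-350-3p (0.954) and miR-26a-5p (0.951), all highest at day 30. Nearest to miR-155-5p were miR-126a-3p (0.850), miR-10a-5p (0.782) and let-7i-5p (0.744), all highest at day 3. Between the members, r was 0.27 for miR-146a-5p with miR-146b-5p, -0.57 for miR-146a-5p with miR-155-5p and -0.06 for miR-146b-5p with miR-155-5p. These are descriptions: the samples share their group, scaling and brightness. The r values of miR-155-5p include its day 0 background, and those of miR-146b-5p the background of day 0 replicate 2 and day 7 replicate 2.

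Other miRNAs described as induced by Toll-like receptor ligands in myeloid cells did not move as a block. Of 15 such entries on the array, which include the undetected opposite arms, 8 were tested. Also never detected were miR-9-5p, miR-9-3p and miR-187-3p. At day 3 against day 0, 3 of the 8 were called as higher and 3 as lower, with a median change of 0.62 beside -0.79 over all tested miRNAs, of which 16.3% were called as higher and 39% as lower. miR-21a-5p, an abundant miRNA that represses Pdcd4, rose by 3.47 (limma adjusted p = 0.000149), and miR-222-3p, undetected at day 0, rose at least 6.78-fold by the bound described for miR-155-5p (adjusted p = 0.00127). miR-99b-5p and miR-125a-5p, which are encoded in a shared cluster, fell, with changes of -4.59 (adjusted p = 4.27e-05) and -4.44 (adjusted p = 7.44e-05), as miR-146a-5p did.

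At day 7 against day 0, 2 of the 8 were called by limma as higher and none as lower (3 each at an unadjusted p under 0.05; median 0.40 beside -0.51 over all, of which 3.79% were called). These were miR-21a-5p, higher by 1.65, and miR-222-3p, whose change is not sized here because day 0 gave background only. At day 30 against day 0, miR-21a-5p was higher by 2.86, and miR-125a-5p and miR-99b-5p were lower, with changes of -1.95 and -1.45 whose signs turned when the percentile was taken over all miRNAs (0.997 and 1.497) and without scaling (2.38 and 2.88). The median there was 0.15 beside -1.37 over all, of which 56.4% were called, and a further lower call, of miR-132-3p, was in a miRNA undetected at day 0 and is not read as a fall.

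Between days 3 and 7, 3 of the 8 were called as higher and 2 as lower (median 0.27 beside 0.61 over all, of which 37.1% were called, 21.1% as higher). miR-125a-5p rose by 3.23 and miR-99b-5p by 3.15, and miR-21a-5p fell by 1.82 and miR-132-3p by 1.27. Between days 3 and 30 the counts were again 3 and 2 (median 0.29 beside -0.41; 30.9% of all called, 9.76% as higher), with miR-99b-5p higher by 3.14, miR-125a-5p by 2.49, and changes of -3.57 for miR-132-3p and -1.99 for miR-222-3p. From day 7 to day 30, miR-21a-5p was higher by 1.21, and miR-132-3p (-2.31) and miR-222-3p (-1.72) were lower, with signs that turned without scaling (0.39 and 1.46); the median was -0.31 beside -0.68, and 47.7% of all were called, 13.6% as higher. The changes of miR-132-3p rest partly on background: it was detected on 2 of the 3 arrays at day 7 and again at day 30. Its day 30 mean of -8.44 lay near the floor of -8.53. Thus miR-99b-5p and miR-125a-5p were lower at day 3 than on both neighbouring days, as was miR-146a-5p, while miR-21a-5p was higher.

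All 4 miRNAs listed as lowered by Toll-like receptor ligands were tested. At day 3 against day 0, 3 were called as higher and 1 as lower (median 1.72 beside -0.79 over all, of which 16.3% were called as higher and 39% as lower): miR-98-5p, detected on 1 of the 2 day 0 arrays, was higher by 2.63 and let-7i-5p by 1.93, whereas miR-125b-5p fell by 3.29, a change that was 0.20 without scaling. Between days 3 and 7, 1 was called as higher and 3 as lower (median -1.73 beside 0.61; 37.1% of all called): miR-125b-5p rose by 2.42, and miR-223-3p, a miRNA of the granulocyte and monocyte lineage, fell by 2.35 and miR-98-5p by 2.17. At day 30 relative to day 3, miR-125b-5p was higher by 2.32 and miR-98-5p lower, at -1.35 (median -1.14 beside -0.41; 30.9% of all called). From day 7 to day 30, miR-223-3p alone was called, as higher by 1.15 (median 0.51 beside -0.68; 13.6% of all called as higher). Against day 0 none of the 4 was called by limma at day 7 (0 at an unadjusted p under 0.05; median -0.19 beside -0.51; 3.79% of all called) or at day 30 (1 at an unadjusted p under 0.05; median 0.58 beside -1.37; 56.4% of all called).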

How the data were processed

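The 11 deposited gene-level scanner files hold, per the file headers, an intensity per miRNA in scanner units (the total gene signal) with its error and a detection flag; images were read with Agilent Feature Extraction, per the submitters' processing notes (version not given in the sources used here). Per the labels' protocols, Cy3 labelling started from 100 ng of total RNA, and replicates are independent biological ones. The authors' table holds log2 values of 317 miRNAs, with the same median on every array; it ranks them within each array as the scanner files do, and served as an alternative. The files name no genome build, so coordinates are those of RefSeq GRCm38.p6.

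Each signal was divided by the 75th percentile of its array, taken over the 126 miRNAs that every array detected, floored at 0.00271 (log2 -8.53) and logged. The 369 miRNAs detected on at least 2 arrays entered 1 fit of 4 groups in limma 3.58.1 under R 4.3.3 (jsonlite 2.0.0), with moderated statistics and Benjamini-Hochberg adjustment within each comparison. The fit was tested on simulated data. Slides were read from the array barcode of each file. Samples were not paired by replicate number in that fit, and slide was not in it. Of 15 same-numbered pairs, 6 had deviations correlated above 0.1 (-0.25 to 0.50), among them day 0 and day 7 replicates 2 (0.50) and day 3 and day 30 replicates 2 (0.34), which shared slide 2. Alternatives were other scalings, filters, floors and samples, the slide or replicate number as a block, and brightness as a covariate; gene-level files allow no other background correction.

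The 3 miRNAs, the lists and the tests were chosen with earlier results of these data known. Besides the 3 miRNAs, the text names the opposite arms, the 3 miRNAs most correlated with each, the 2 largest called changes per direction in each pathway list, and cell type markers; never-detected list members and the choice among markers were named after their values were seen.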

Additional observations from a re-analysis of the deposited data

How the results depend on the processing

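The 18 changes of the 3 miRNAs and the 6 counts of called miRNAs were recomputed under 12 alternative settings and without each of the 10 samples; changes are on the log2 scale, and where a group is left with 1 sample, that sample is assumed to vary like the other groups. The change of miR-146a-5p at day 30 relative to day 3 was called under all 22. With the percentile over all miRNAs, miR-146a-5p gave -2.05, 0.37 and 3.69 (then called) at days 3, 7 and 30 relative to day 0 and 2.41 at day 7 relative to day 3, miR-146b-5p gave 0.62 at day 7 and 4.003 at day 30 relative to day 0, and miR-155-5p gave 2.12 and 3.50 there, -1.83 at day 7 relative to day 3 and 1.37 between days 7 and 30. Without scaling, the changes of miR-146a-5p were -1.09, 0.20, 5.08 and 1.29 in the order given, those of miR-146b-5p 3.42 at day 3, 0.44 at day 7 and 5.19 at day 30 relative to day 0 and -2.98 at day 7 relative to day 3, and those of miR-155-5p 4.54 at day 30 relative to day 0, -2.96 at day 7 relative to day 3 and 2.93 between days 7 and 30. With quantile normalization, miR-155-5p gave 2.10 and 2.97 at days 7 and 30 relative to day 0, -1.24 at day 7 relative to day 3 and 0.88 between days 7 and 30, and miR-146a-5p 1.49 at day 30 relative to day 7. The authors' table gave 2.08 for miR-155-5p and 1.66 for miR-146b-5p at day 30 relative to day 0, -1.25 for miR-155-5p at day 7 relative to day 3, and 0.82 for miR-155-5p and 1.48 for miR-146a-5p between days 7 and 30. The highest floor took the calls of miR-155-5p at day 3 relative to day 0 (0.66) and miR-146a-5p at day 30 relative to day 7 (1.70). With brightness as a covariate, miR-146a-5p gave -1.83 at day 30 relative to day 0 and -0.19 relative to day 7, miR-146b-5p -2.68, -1.63 and -2.43 at days 3, 7 and 30 relative to day 0, 1.05 at day 7 relative to day 3 and -0.80 between days 7 and 30, and miR-155-5p 2.70 at day 3 relative to day 0 and 0.76 at day 30 relative to day 7. With the slide as a block, miR-146b-5p passed the test at day 30 relative to day 0 (1.15) and at days 7 (-0.88) and 30 (1.10) relative to day 3. The fit with brightness as a covariate can hardly separate brightness from group where days 3 or 30 are compared with days 0 or 7. The cause of these differences was not tested.

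Leaving out 1 sample at a time, miR-146a-5p ran from 1.31 to 1.94 at day 30 relative to day 7; miR-146b-5p from -0.31 (without day 0 replicate 2) to 0.73 at day 3 and from 0.63 to 1.66 at day 30 relative to day 0, and from 1.29 to 2.10 between days 7 and 30; and miR-155-5p from 0.86 to 2.33, 0.25 to 1.72 and -0.0019 (without day 0 replicate 1) to 1.47 at days 3, 7 and 30 relative to day 0. The numbers of called miRNAs ran from 128 to 240, 0 to 169 and 102 to 263 for days 3, 7 and 30 relative to day 0, from 82 to 220 and 29 to 160 for days 7 and 30 relative to day 3, and from 110 to 208 between days 7 and 30. The 0 at day 7 relative to day 0 came without day 3 replicate 2 or 3, day 7 replicate 3, day 30 replicate 1 or the day 30 pair, where 125, 116, 38, 109 and 109 miRNAs had an unadjusted limma p under 0.05.

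Without a filter the counts of called miRNAs moved to 1110, 1011 and 1109 at days 3, 7 and 30 relative to day 0 and 790 at day 7 relative to day 3, where most miRNAs tested were never detected. With the highest floor they were 71 at day 3 and 68 at day 30 relative to day 0, 74 and 53 at days 7 and 30 relative to day 3 and 89 at day 30 relative to day 7. With brightness as a covariate they were 68, 69 and 0 at days 3, 7 and 30 relative to day 0 (75 at an unadjusted limma p under 0.05 for the last), 58 at day 7 relative to day 3 and 13 between days 7 and 30. At day 7 relative to day 0 they were also 61 with the percentile over all miRNAs, 45 without scaling, 39 with quantile normalization, 22 in the authors' table, 24 with the slide as a block and 0 with only the 2 groups compared (24 unadjusted by limma). No scaling gave 208 at day 7 relative to day 3, and fitting only the 2 groups gave 201 at day 30 relative to day 3.

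The reported fit did not pair samples by replicate number, and 13 of the 15 same-numbered pairs shared a slide, so that replicate number and slide largely went together. With the replicate number as a block and 11 separate arrays, miR-146a-5p changed by -4.63 at day 3 relative to day 0 and 5.27 at day 30 relative to day 3, miR-146b-5p by 1.77 at day 30 relative to day 7 and miR-155-5p by 1.58 at day 3 relative to day 0, and no call of the 3 miRNAs was gained or lost. Signal over background limits miR-155-5p at day 0 and miR-146b-5p on 2 arrays, where only background was read.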
